A study of Homo sapiens with 11 samples.

Results

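The effect of an siRNA against Staufen1 in decitabine-treated cells was read for all 58699 genes of the authors' total RNA table, as the level in siStau1 DAC set against the level in siLuc DAC. Both groups were HCT116 cells, an established line from a human colorectal carcinoma, that received decitabine (DAC) at 500 nM for 5 days. Cells of the siLuc DAC group carried an siRNA against luciferase as the control, and cells of the siStau1 DAC group carried an siRNA against Staufen1. The same pair of siRNAs with the solvent DMSO in place of DAC (siLuc DMSO and siStau1 DMSO) is given beside it. Each group was made of 2 libraries of total RNA, ribosomal RNA depleted and stranded per the labels, so the 2 DAC groups hold 4 of the 11 libraries of the series. The labels number the 2 libraries of a group and do not say whether they came from separate cultures, so the authors' p-values measure only the spread between these libraries, which may be technical.

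The table holds 1 FPKM value per gene and group (fragments scaled to transcript length and to all mapped fragments, so levels can be compared between genes). No value per library is used here, so the depth is unknown and no error between replicates can be printed. A gene is termed called where the authors' deposited q-value in the comparison was under 0.05. Ratios are log2 of siStau1 over siLuc after 0.1 FPKM was added to both, which understates the change of low genes. In such bulk samples, fewer cells expressing a gene and less RNA per cell cannot be told apart.

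Staufen1 binds double-stranded stretches of RNA, carries and localises mRNAs, and can mark mRNAs with base-paired ends for decay together with UPF1. Decitabine is a cytidine analogue that traps DNA methyltransferases, so that methylation is lost as cells divide and silenced genes and endogenous retroviral copies can be transcribed. Double-stranded RNA in the cytosol is detected by sensors such as MDA5 (IFIH1) and RIG-I (DDX58), which act through MAVS to switch on interferon genes. Secreted interferon then acts through its receptors, JAK kinases and STAT and IRF factors on a large set of antiviral genes. The lambda interferons are the ones that act mainly on epithelial cells, the cell type of this line.

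STAU1 itself, the target of the siRNA, stood at 33.7 FPKM in siLuc DAC and at 27.1 FPKM in siStau1 DAC, a log2 ratio of −0.31. It was not called, with a q-value of 0.685 by the authors' deposited table. With DMSO its level was 35.5 FPKM in siLuc and 30.0 FPKM in siStau1. STAU1 mRNA was thus lower in both siStau1 groups than in their controls, by amounts that the authors' test did not call. The mRNA levels therefore do not establish how far Staufen1 was lowered, no protein level was used here, and the groups are named by their labels. Its paralogue STAU2 stood at 7.33 FPKM in siLuc DAC and 16.7 FPKM in siStau1 DAC, a log2 ratio of 1.18 that was not called either (q-value of 0.274 by the authors' deposited table).

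Of the 17263 genes that the authors tested, 156 were called (0.904%), 75 of them higher in siStau1 DAC (0.434%) and 81 lower (0.469%). Among called genes at 1 FPKM or more in both groups, the largest falls included those of the lambda interferons IFNL3, IFNL1 and IFNL2, the keratins KRT17 and KRT14, the chemokine CCL5 and interferon-stimulated genes such as OASL, APOL1 and ISG20. By the same limit the largest rises were those of PUS7L, HMMR, MZT1, CETN3, SEC62 and DEPDC1, several of which act in mitosis or at the centrosome. Some called genes under that limit in a group had larger ratios still, and others, such as C2orf92 (ratio −1.01), had smaller ones. Among the larger were FXYD2 (0.677 to 0.00932 FPKM, ratio −2.83), which modulates the sodium pump, and MSR1, a scavenger receptor (ratio 2.27). The siStau1 DAC level of FXYD2 is under the 0.1 FPKM added. These genes were named after their values were seen. The median ratio of the 13389 genes at 1 FPKM or more in both groups was −0.11, with quartiles of −0.48 and 0.31, and of all tested genes it was −0.14. The 148 called genes above 0 in both groups had median ratios of 1.27 (73 higher genes) and −1.21 (75 lower genes). The called changes were all of at least 0.90 in size, while 943 genes at 1 FPKM or more in both groups had a ratio of at least 1 in size and 121 of them were called. The calls rest on an adjustment that the authors made over all 6 comparisons of their table together. Adjusted by Benjamini-Hochberg within this comparison alone, the same p-values of the authors' deposited table give no called gene. The smallest adjusted p was then 0.0719, while 1199 genes had an unadjusted p under 0.05. The smallest p-value in the authors' deposited table was 5e-05, shared by 12 genes of this comparison. The 0.0719 is the adjusted value of that shared p, whose deposited q-value was 0.00162.

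**Figure D1:**
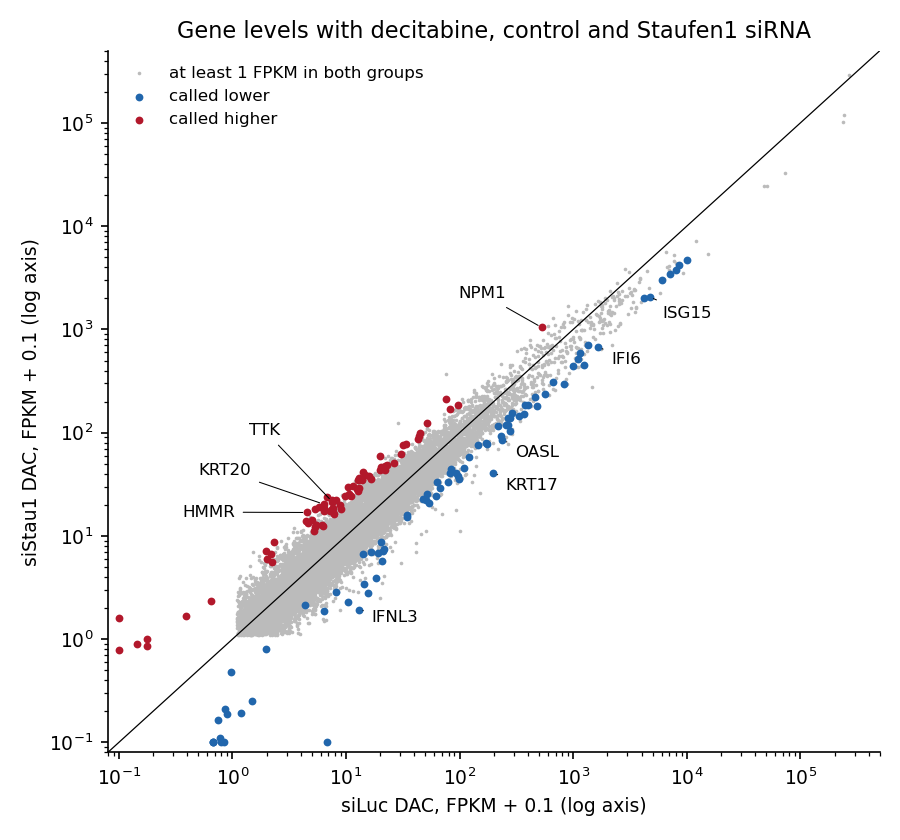
FPKM plus 0.1 of each gene in siLuc DAC (horizontal, log axis) and siStau1 DAC (vertical, log axis), 1 value per group, with the line of equal levels. Grey points are the 13389 genes at 1 FPKM or more in both groups, blue points the 81 genes called lower and red points the 75 called higher. Called genes lie along both edges of the cloud, the lower ones over the whole range of levels and most of the higher ones between 1 and 100 FPKM in siLuc DAC.

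The lambda interferon genes held the largest called falls among genes at 1 FPKM or more in both groups, IFNL3 and IFNL1. Of 8 interferon ligand genes, 4 were tested by the authors and 3 were called, all lower, against 0.469% called lower of all tested genes. Their median ratio was −2.34 over the 4 tested, against −0.14 over all tested genes. IFNL1 (interferon lambda 1, chr19:39296325-39298673, plus strand, GRCh38 as in GENCODE 29) stood at 15.5 FPKM in siLuc DAC and 2.71 FPKM in siStau1 DAC, and its ratio of −2.48 had a q-value of 0.00732 by the authors' deposited table. IFNL3 (chr19:39243553-39245129, minus strand) stood at 12.9 and 1.83 FPKM, a ratio of −2.75. IFNL2 (chr19:39268514-39270092, plus strand) stood at 10.4 and 2.17 FPKM, a ratio of −2.21. The 3 genes lie within one cluster on chromosome 19, and IFNL2 and IFNL3 are near-identical copies, so how reads were shared between them is uncertain. IFNB1, which encodes interferon beta, was at 1.27 FPKM in siLuc DAC and 0.216 FPKM in siStau1 DAC, a ratio of −2.12 that was not called (q-value of 0.427 by the authors' deposited table). IFNE was at 0.171 and 0.251 FPKM and was not tested, and IFNA1, IFNK and IFNL4 were listed at 0 in both groups.

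With DMSO the same ligands were at 3.97 (IFNL1), 3.35 (IFNL3) and 1.99 FPKM (IFNL2) in siLuc and between 0.0356 and 0.124 FPKM in siStau1. None of the 3 lambda genes was called in that comparison, and IFNB1 was called there, from 2.63 FPKM in siLuc DMSO to a listed 0 in siStau1 DMSO. By these levels each of the 3 lambda genes was higher in siStau1 DAC than in siStau1 DMSO and lower than in siLuc DAC.

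**Figure D2:**
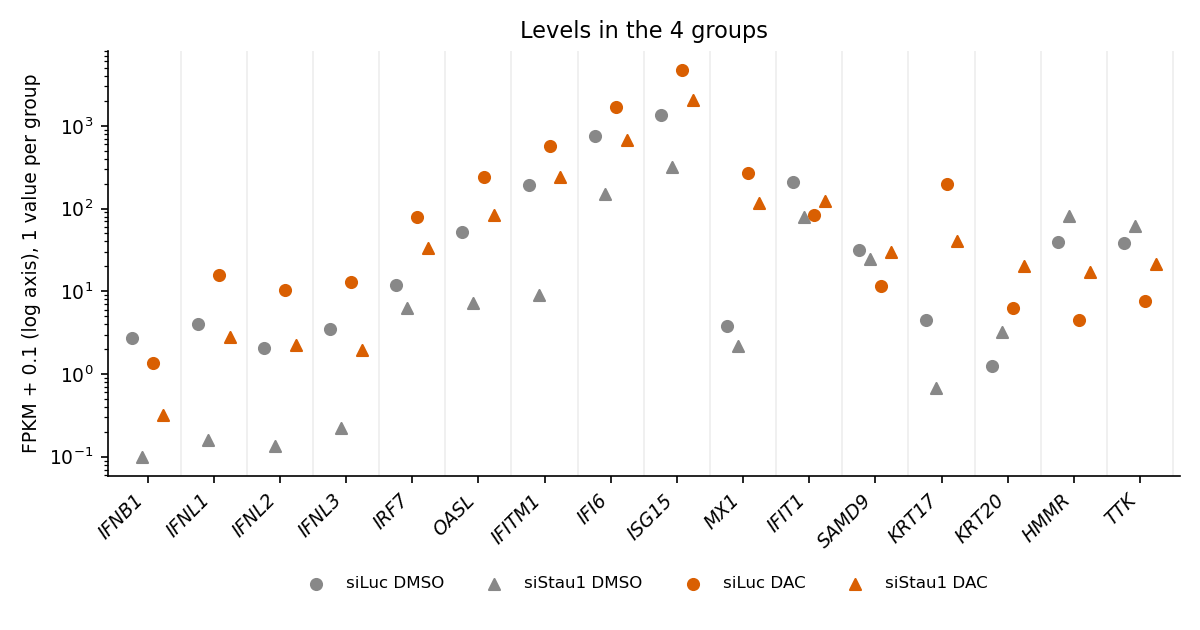
FPKM plus 0.1 (log axis) of 16 genes in the 4 groups, 1 authors' value per group: circles siLuc, triangles siStau1, grey DMSO, orange DAC. From IFNB1 to MX1 and for KRT17 the siStau1 DAC triangle lies below the siLuc DAC circle, and for IFIT1, SAMD9, KRT20, HMMR and TTK it lies above.

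The genes that detect the RNA and relay the signal gave 2 calls, 1 higher and 1 lower, where 0.434% of all tested genes were called higher and 0.469% lower. Among 6 interferon receptor genes, 1 was called, and it was higher: IFNGR1, a chain of the interferon gamma receptor (chr6:137197484-137219449, minus strand), stood at 4.88 FPKM in siLuc DAC and 14.3 FPKM in siStau1 DAC, a ratio of 1.53. IFNLR1, the chain specific to lambda interferons, was at 3.78 and 3.43 FPKM, and IFNAR1 and IFNAR2, the receptor chains of type I interferons, had ratios of 0.23 and −0.03. None of the 13 tested sensor and adaptor genes was called, and their median ratio was −0.24. DDX58 was at 51.7 and 53.5 FPKM, IFIH1 at 22.03 and 29.1 FPKM, MAVS at 10.2 and 8.12 FPKM, and EIF2AK2, the kinase PKR, at 48.0 and 56.3 FPKM. DHX58, which encodes the regulator LGP2, had the lowest ratio of the sensors, −1.14, and a q-value of 0.120 by the authors' deposited table.

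Among 13 JAK-STAT and IRF genes, 1 was called lower and none higher, with a median ratio of −0.64, and of −0.25 after the centring on GC content described below. The called gene was IRF7, the factor that amplifies interferon transcription, at 78.5 FPKM in siLuc DAC and 32.9 FPKM in siStau1 DAC, a ratio of −1.25. STAT2, a factor of the response to type I and lambda interferons, was at 52.8 and 32.2 FPKM, a ratio of −0.71 that was not called. SOCS1 and TYK2, a feedback inhibitor and a receptor-bound kinase, had ratios of −1.29 and −1.17 and were not called. JAK1 and STAT3, a receptor-bound kinase and another STAT factor, had ratios of 0.21 and −0.11.

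Interferon-stimulated effector genes, many of whose products act against viruses, made up the largest called group among the lists. Of 44 effectors tested, 10 were called lower and 1 higher, 35 had a ratio below 0, and the median was −0.61. By comparison 0.469% of all tested genes were called lower and their median was −0.14. OASL, an inhibitor of viral replication related to the 2-5A synthetases, stood at 238.5 FPKM in siLuc DAC and 84.0 FPKM in siStau1 DAC, a ratio of −1.50 with a q-value of 0.00162 by the authors' deposited table, the smallest it holds. ISG20, an RNA exonuclease, went from 99.3 to 35.8 FPKM, a ratio of −1.47. ISG15, a ubiquitin-like modifier and the most abundant of the called effectors, was at 4708 FPKM in siLuc DAC and 2065 FPKM in siStau1 DAC, a ratio of −1.19. The other called falls lay between −0.93 and −1.34: IFI35, IFI6, IFITM1, MX1, LGALS3BP, IFI27 and IFITM3.

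Set against the control cells without DAC, the called effectors stood at different levels. IFI6, an antiviral protein of the endoplasmic reticulum, was at 675 FPKM in siStau1 DAC, with 752 FPKM in siLuc DMSO and 1669 FPKM in siLuc DAC. OASL was at 51.2 FPKM in siLuc DMSO, and thus lower there than the 84.0 FPKM of siStau1 DAC. MX1, a GTPase that restricts RNA viruses, was at 3.74 FPKM in siLuc DMSO, 266 FPKM in siLuc DAC and 118 FPKM in siStau1 DAC. In siStau1 DAC, MX1 thus stayed far above its siLuc DMSO level, while IFI6 was below its own.

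In 9 effectors the ratio was above 0, and 1 of them was called. SAMD9, an antiviral factor that blocks poxvirus replication (chr7), was called higher, from 11.4 FPKM in siLuc DAC to 30.0 FPKM in siStau1 DAC, a ratio of 1.39. IFIT1 and IFIT5, which bind the ends of foreign RNA, were at 83.6 and 124.8 FPKM and at 18.0 and 26.6 FPKM, ratios of 0.58 and 0.56 that were not called. IFI16, IFI44, PARP9 and DDX60 had ratios from 0.22 to 0.48, and PLSCR1 and SP110 were at 0.01, where DDX60, PLSCR1 and SP110 turned to −0.15, −0.36 and −0.11 after the centring on GC content described below. RSAD2, which encodes viperin, had the lowest ratio of all effectors, −1.62 (24.1 to 7.75 FPKM), and was not called, with a q-value of 0.0671 by the authors' deposited table. Ratios of the 44 genes thus ran from −1.62 to 1.39.

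The promoters of these genes were compared with the RefSeq promoter table for GRCh38.p14, as the interferon-stimulated response element is the site through which STAT2 and IRF9 act. The core GAAANNGAAA was searched on both strands in the 250 bases before each annotated start. It was found in 26 of the 37 effectors that matched the table (70.3%), against 1014 of its 27305 genes (3.71%). Of the effectors called lower 8 of 9 matched genes held it, and of the other effectors 18 of 28. Outside the effector list, 3 of 38 matched genes called lower held it (7.9%), and these were IFNL1, IFNL2 and IFNL3. Of the 64 matched genes called higher, 4 held it (6.25%): SAMD9, CDC5L, PSMA4 and UBLCP1. A match is a description of letters and shows no binding.

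The 100 bases that hold the core are given for 3 called effectors that fell and for SAMD9, the called effector that rose, since both kinds carry it. They lie outside annotated exons and are read 5′ to 3′ on the gene's strand, with the core and its reverse complement in capitals. The stretches are chr1:27672256-27672355 (IFI6, minus strand), chr1:1013320-1013419 (ISG15, plus), chr14:94110571-94110670 (IFI27, plus) and chr7:93118086-93118185 (SAMD9, minus), on GRCh38.p14. IFI6 holds 3 cores, ISG15 2 that overlap, IFI27 2 on opposite strands, and SAMD9 1.
IFI6: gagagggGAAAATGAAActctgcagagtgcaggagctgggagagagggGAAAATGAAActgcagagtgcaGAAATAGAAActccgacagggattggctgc
ISG15: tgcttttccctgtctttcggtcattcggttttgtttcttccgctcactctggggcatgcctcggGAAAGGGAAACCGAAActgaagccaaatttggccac
IFI27: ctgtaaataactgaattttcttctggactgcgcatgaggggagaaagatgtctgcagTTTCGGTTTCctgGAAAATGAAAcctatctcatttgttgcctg
SAMD9: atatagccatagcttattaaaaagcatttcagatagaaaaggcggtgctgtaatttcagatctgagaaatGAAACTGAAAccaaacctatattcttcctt

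No gene of MHC class I antigen presentation was called among 15 tested, which is near the 0.904% called of all tested genes. Of the 15, 14 had a ratio below 0, and the median was −0.89. TAP1, a subunit of the peptide transporter, was at 126.2 and 66.7 FPKM, a ratio of −0.92. B2M, the light chain shared by all class I molecules, was the exception, at 599 and 675 FPKM, a ratio of 0.17. The median transcript GC content of this list was 57.5%, and after centring on GC content, described below, its median ratio was −0.48.

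Among 17 tested chemokine and NF-kB feedback genes, 1 was called: CCL5, which attracts T cells (chr17:35871491-35880793, minus strand). Its level was 18.4 FPKM in siLuc DAC and 3.84 FPKM in siStau1 DAC, a ratio of −2.23. IL6 was at 0.591 and 0.0605 FPKM and was not called, and CXCL10 and CXCL8 had ratios of −0.66 and 0.41 that were not called. The median of the list was −0.49, and its 1 call stands against 0.469% called lower of all tested genes. Other called genes among the largest falls were RARRES3, a phospholipase that limits growth (20.7 to 5.67 FPKM, ratio −1.85), APOL1, an innate immunity lipoprotein (20.9 to 7.04 FPKM, ratio −1.55), and RRAD, a small GTPase (6.36 to 1.78 FPKM, ratio −1.78). ARC, known from neurons for its capsid-like assembly, went from 21.5 to 7.38 FPKM (ratio −1.53), and PTPN23, a phosphatase-like protein of endosomal sorting, from 8.10 to 2.75 FPKM (ratio −1.53).

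**Figure D3:**
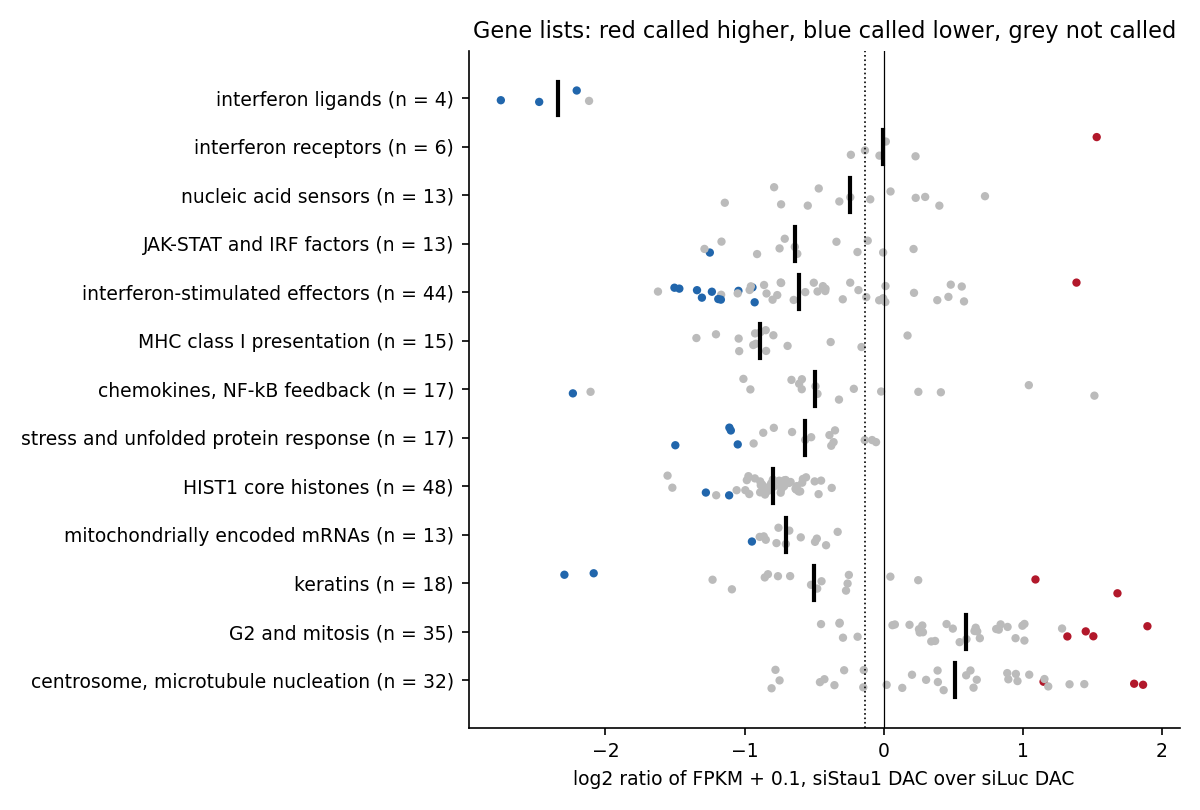
Log2 ratio of FPKM plus 0.1, siStau1 DAC over siLuc DAC, of every tested member of 13 gene lists. Each point is 1 gene, blue where called lower, red where called higher and grey where not called; black bars are list medians, the dotted line is the median of all tested genes (−0.14) and the solid line is 0, and the vertical spread within a list is for display only. The interferon ligands lie between −2.75 and −2.12, all 48 HIST1 histones lie below 0, and 30 of the 35 G2 and mitosis genes lie above 0.

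Keratins, the intermediate filament proteins of epithelia, were called in both directions. Of 18 tested, 2 were called lower and 2 higher, against 0.469% and 0.434% of all tested genes. KRT17, a keratin of basal and stressed epithelium (chr17:41619441-41624842, minus strand), stood at 198.0 FPKM in siLuc DAC and 40.3 FPKM in siStau1 DAC, a ratio of −2.29. KRT14, another basal keratin, stood at 14.4 and 3.32 FPKM, a ratio of −2.08. KRT20, a keratin of differentiated intestinal epithelium (chr17:40875941-40885227, minus strand), was called higher, from 6.24 to 20.2 FPKM, a ratio of 1.68. KRT23 was called higher as well, from 43.8 to 93.4 FPKM, a ratio of 1.09. The abundant keratins of simple epithelium, KRT8, KRT18 and KRT19, were at 3159, 3469 and 1419 FPKM in siLuc DAC with ratios from −0.52 to −0.45, and none was called. Of the 18 keratins tested, 14 had a ratio below 0. Their median was −0.50 and, centred on GC content, −0.09.

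Genes of the integrated stress and unfolded protein responses, which cells switch on when translation or protein folding is disturbed, gave 4 calls among 17 tested, all lower. For all tested genes the share called lower was 0.469%. All 17 had a ratio below 0, and their median was −0.56. CHAC1, which degrades glutathione, went from 19.2 to 6.72 FPKM, a ratio of −1.50. TRIB3 and SESN2, a pseudokinase and a stress-induced regulator of growth signalling, had ratios of −1.11 and −1.10. PPP1R15A, which returns translation to normal by directing dephosphorylation of eIF2 alpha, went from 121.3 to 58.6 FPKM, a ratio of −1.05. ATF4, the factor that drives many of these genes, was at 315.7 and 219.9 FPKM (ratio −0.52) and was not called. Of the other called falls within lists, PLAUR (the urokinase receptor) and LAMB3 (a laminin chain) had ratios of −1.12 and −1.04, and BAK1, which permeabilises mitochondria in apoptosis, had a ratio of −1.02.

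The higher genes held members of cell division. Of 35 G2 and mitosis genes, 4 were called higher and none lower, against 0.434% called higher of all tested genes. The median ratio was 0.59 against −0.14, and 0.27 after the centring on GC content described below. The median transcript GC content of this list was 42.1%. HMMR, a spindle assembly protein (chr5:163460203-163491945, plus strand), stood at 4.43 FPKM in siLuc DAC and 16.8 FPKM in siStau1 DAC, a ratio of 1.89. TTK, the kinase of the spindle checkpoint, went from 7.46 to 21.4 FPKM, a ratio of 1.51 with a q-value of 0.00162 by the authors' deposited table. DLGAP5, which stabilises spindle microtubules, went from 12.7 to 34.9 FPKM, and SMC2, a condensin subunit, from 2.15 to 5.50 FPKM, ratios of 1.45 and 1.32. The list was not uniform: CDC20, PLK1, AURKB, UBE2C and CENPA had ratios from −0.45 to −0.19, and MKI67, the proliferation antigen, was at 37.2 and 38.9 FPKM. None of these 6 was called. The siLuc DAC levels of the 4 called genes were the lowest of the 4 groups: HMMR was at 39.3 FPKM in siLuc DMSO and 81.0 FPKM in siStau1 DMSO.

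Among 32 centrosome and microtubule nucleation genes, 3 were called higher and none lower, against the same 0.434%, with a median ratio of 0.51. This list, like the others, was chosen with earlier results of these data known, so its calls are no independent support. MZT1, a small subunit of the gamma-tubulin complex (chr13:72708357-72727687, minus strand), went from 1.87 to 7.08 FPKM, a ratio of 1.86. CETN3, a centriole protein of the centrin family, went from 6.75 to 23.7 FPKM, a ratio of 1.80, and CEP55, which acts at the last step of cell division, from 19.7 to 43.8 FPKM, a ratio of 1.15. TUBG1, gamma-tubulin itself, was at 53.4 and 39.7 FPKM and was not called. The 31 genes of DNA replication gave no call in either direction and a median of 0.11.

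PUS7L, a pseudouridine synthase (chr12:43718993-43758817, minus strand), had the largest rise among called genes at 1 FPKM or more in both groups, from 2.23 to 8.57 FPKM, a ratio of 1.90. It was the 1 called gene of 13 pseudouridine synthases, whose median was −0.27, against 0.434% called higher of all tested genes. That list too was chosen with earlier results of these data known. SEC62, a subunit of the protein translocation channel of the endoplasmic reticulum, went from 5.24 to 18.1 FPKM, a ratio of 1.77. DEPDC1, a protein linked to mitosis, had a ratio of 1.71, and ARL6IP5, a membrane protein of the endoplasmic reticulum, 1.64. EHF, an epithelial transcription factor, went from 6.29 to 18.7 FPKM, and TPMT, which methylates thiopurine drugs, from 1.93 to 5.88 FPKM, both with a ratio of 1.56. Ratios of 1.55 to 1.60 were also measured for the zinc finger gene ZNF92, the mitochondrial protein gene HIGD1A, the Golgi protein gene SCOC and CIAO2A, a factor of iron-sulfur cluster assembly. In the remaining lists the called rises were COX7B and ATP5F1C among 84 nuclear OXPHOS subunits (median 0.09) and ZNF708 among 184 zinc finger genes on chromosome 19 (median −0.20). With 0.434% of all tested genes called higher, the 1 call among 184 zinc finger genes is near that share.

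Histone mRNAs and small structured RNAs mostly lack long poly(A) tails. Those of them that were called were each lower, and the counts below stand against 0.469% called lower of all tested genes. All 48 tested core histone genes of the HIST1 clusters had a ratio below 0, with a median of −0.79, and 2 were called: HIST1H3C (371.3 to 153.0 FPKM, ratio −1.28) and HIST1H2BB (403.1 to 186.6 FPKM, ratio −1.11). HIST2H2BE and HIST4H4, which lie outside these clusters and were named after their values were seen, were called lower too, with the smallest changes of all called genes (ratios −0.90 and −0.91). HIST2H2AC and H2AFX were called lower as well (ratios −1.07 and −0.94), and were also named after their values were seen. Near-identical copies make single histone genes uncertain. Of 15 abundant structured RNAs tested, 14 had a ratio below 0, with a median of −1.02, and RNU4-1, RNU4-2, SNORD3C and SCARNA2 were called lower. RNU4-1, a spliceosomal U4 RNA, was at 7149 FPKM in siLuc DAC and 3449.6 FPKM in siStau1 DAC. By annotated class, the medians were −1.14 for 131 snoRNAs and −1.09 for 113 genes of the miscellaneous RNA class, with 2 and 6 called lower and none called higher. RN7SL471P, a copy related to the signal recognition particle RNA, had the largest called fall of a non-coding RNA at 1 FPKM or more in both groups, from 825.2 to 298.6 FPKM. Of 478 tested genes whose longest transcript is under 300 bases, 9 were called, all lower, and the median was −0.81. RN7SK, an abundant RNA of all cells, was listed at 0 in siLuc DAC and at 202720 FPKM in siStau1 DAC without being tested, so listed zeros of this class cannot be read as absence. The miscellaneous RNA genes called lower included RN7SKP79, RN7SKP80 and RN7SKP203, named as copies of RN7SK. How reads were shared between these copies is uncertain, so their calls cannot be read as separate falls. With RN7SK included, the summed level of the structured RNAs was 545873 FPKM in siLuc DAC and 632238 FPKM in siStau1 DAC. The 202720 FPKM of RN7SK is in the second sum only, so the sums give no direction for the other structured RNAs.

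The 13 mRNAs encoded by mitochondrial DNA all had a ratio below 0, with a median of −0.70. MT-ND1, a subunit of complex I, was called (267 to 139 FPKM, ratio −0.95), against 0.469% called lower of all tested genes. With DMSO the median of the same 13 genes was 0.32 and none was called. Cytosolic ribosomal protein genes gave no call among 84, near the 0.904% called of all tested genes. Their median was −0.05, which turned to 0.061 when the median of all genes was set to 0 and to 0.11 after centring on GC content.

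With 0.904% of all tested genes called, a small list without a call is near that share. Further lists that bear on the treatment or the target gave no called gene. They were 5 tested genes reported as targets of Staufen-mediated decay (median −0.83, and −0.19 after centring on GC content), 14 decay factors (median −0.22), 14 double-stranded RNA binding and editing proteins (median 0.12), 12 genes of DNA methylation and decitabine handling (median −0.16, and 0.11 after centring on GC content) and 18 p53 targets (median −0.25, and 0.070 after centring). Among the reported decay targets, ARF1 was at 293.9 and 235.7 FPKM. ADAR, the RNA editing enzyme, was at 175.7 and 120.3 FPKM, and DNMT1 was at 86.2 and 79.4 FPKM. Germline genes, which DNA methylation keeps silent in somatic cells, had a median of −0.10 over 19 tested, which turned to 0.013 with the median of all genes set to 0: the tumour antigen gene MAGEA4 was at 97.5 FPKM in siLuc DAC and 119 FPKM in siStau1 DAC, and at a listed 0 with DMSO. The 5 tested retroviral envelope and HERV genes had a median of 0.00, and −0.061 after centring on GC content, with ERV3-1 at 2.51 FPKM in both groups. Cholesterol synthesis genes (20 tested, median −0.05, and 0.064 and 0.061 under these settings) and Wnt targets (10 tested, median −0.25) had no call.

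Transcript GC content separated the called genes. The 75 higher genes had a median GC content of 38.2% (quartiles 36.4% and 40.9%), the 81 lower genes 56.6% (51.5% and 60.5%), and all tested genes 48.7%. Over 20 equal bins of GC content, the median ratio went from 0.57 in the lowest bin to −0.64 in the highest, and with DMSO from 0.39 to −0.23. The lowest bin held 27 called higher genes and no lower one, and the highest bin 11 called lower genes and no higher one. When each gene's ratio was centred on the median of its bin, all 156 called genes kept their sign and 61 of them, 27 higher and 34 lower, still had a ratio of at least 1 in size, as against 142 before. Of the genes named above, centring brought RRAD to −1.14, ARC to −0.89, PTPN23 to −0.93, CHAC1 to −0.90, RN7SL471P to −0.83, IRF7 to −0.61, ISG15 to −0.59 and SCARNA2 to −0.40. The centred medians were −2.13 for the interferon ligands, −0.54 for the effectors, −0.58 for the stress genes and −0.83 for the mitochondrial mRNAs, and 0.27 for the G2 and mitosis genes, 0.36 for the centrosome genes and −0.49 for the HIST1 histones. Centring thus left the list medians of the interferon ligands, effectors and stress genes near their measured values. The called falls of single stress genes shrank, with TRIB3 at −0.59 and SESN2 and PPP1R15A at −0.58. Centring moved the median of the mitotic genes from 0.59 to 0.27. The effector list had a median GC content of 44.7%, and its called falls shrank on centring. IFI35 came to −0.87, IFI6 to −0.94, IFITM1 to −0.97, MX1 to −0.91, LGALS3BP to −0.53, IFI27 to −0.78 and IFITM3 to −0.48. OASL and ISG20 came to −1.34 and −1.20, and the called rise of SAMD9 to 0.81. Among called division genes, HMMR came to 1.32, TTK to 1.17, DLGAP5 to 1.00 and SMC2 to 0.87. MZT1, CETN3 and CEP55 came to 1.29, 1.23 and 0.80. The part of GC content in the single calls was not tested.

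**Figure D4:**
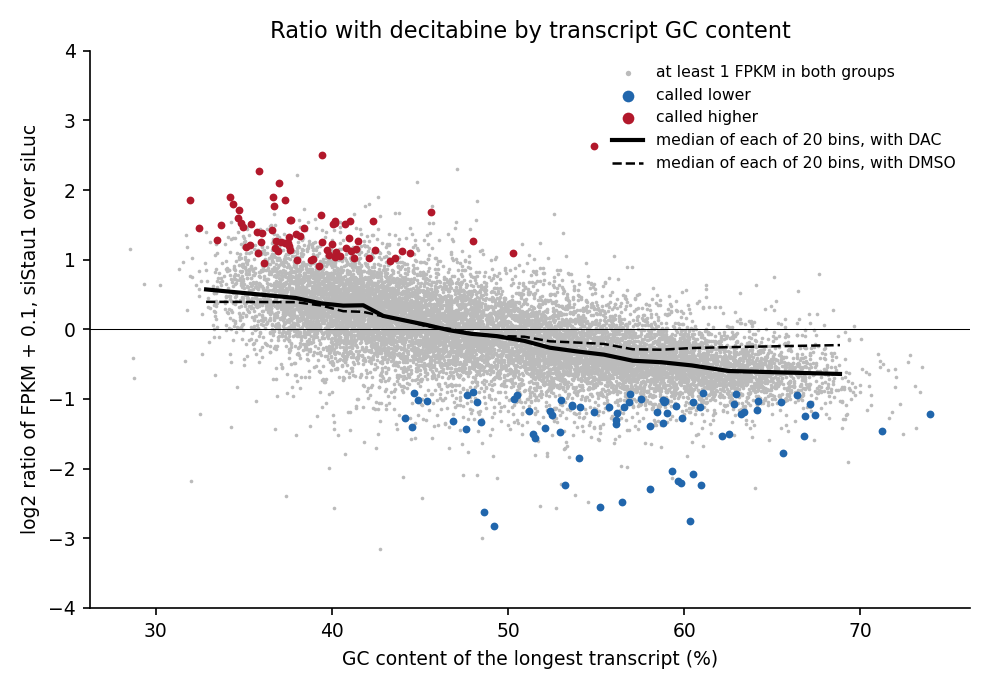
Log2 ratio of FPKM plus 0.1, siStau1 DAC over siLuc DAC, against GC content, taken from the longest transcript of a gene. Grey points are genes at 1 FPKM or more in both groups, red and blue points the called genes above 0 in both groups, the solid line joins the medians of 20 bins with DAC (from 0.57 to −0.64) and the broken line those of the knockdown with DMSO (from 0.39 to −0.23). Called higher genes lie mostly at low GC content and called lower genes at middle to high GC content.

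The knockdown with DMSO, which shares no library with the knockdown with DAC, gave 127 called genes of 15893 tested (0.799%), of which 74 were lower (0.466%). Of the 75 genes called higher with DAC, 73 were tested with DMSO, 68 of these had a ratio above 0 there (93.2%, against 47.9% of all genes tested in both) and 1 was called, ZRANB2-AS2. Of the 81 genes called lower with DAC, 68 were tested with DMSO, 53 had a ratio below 0 there (77.9%, against 52.1%) and 14 were called, all lower. The DMSO ratio centred on GC content had the same sign as the uncentred DAC ratio in 58 of the 73 and 47 of the 68. The same held for 8019 of all 14630 genes tested in both. All 156 called genes kept their sign when the DAC ratio was centred. Of all 17263 tested genes only 13152 did, so the 8019 genes are not a count for centring in both. The 14 included 7 effectors (OASL, IFI35, IFI6, IFITM1, ISG15, IFI27 and IFITM3) and APOL1, ZC3HAV1, KRT17, PPP1R15A, SCARNA2 and 2 genes listed as RF00003, the family of the U1 spliceosomal RNA. OASL was at 51.2 and 7.20 FPKM with DMSO (ratio −2.81), IFITM1 at 191 and 8.80 FPKM (ratio −4.43) and IFI27 at 401.7 and 37.2 FPKM (ratio −3.43). The 41 effectors tested with DMSO all had a ratio below 0, with a median of −1.47, and 21 of them were called lower. Whether the effect of the knockdown on these genes differed between DAC and DMSO was not tested.

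Some genes called lower with DAC had a ratio above 0 with DMSO or no test there. RN7SL471P was at 0.365 and 1.30 FPKM with DMSO and ARC at 1.45 and 1.67 FPKM, both far under their levels with DAC. KRT14 was listed at 0 in siLuc DMSO and was at 0.0411 FPKM in siStau1 DMSO. PTPN23 was at 1.23 FPKM in siLuc DMSO and 1.56 FPKM in siStau1 DMSO, a ratio of 0.32 that was not called.

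**Figure D5:**
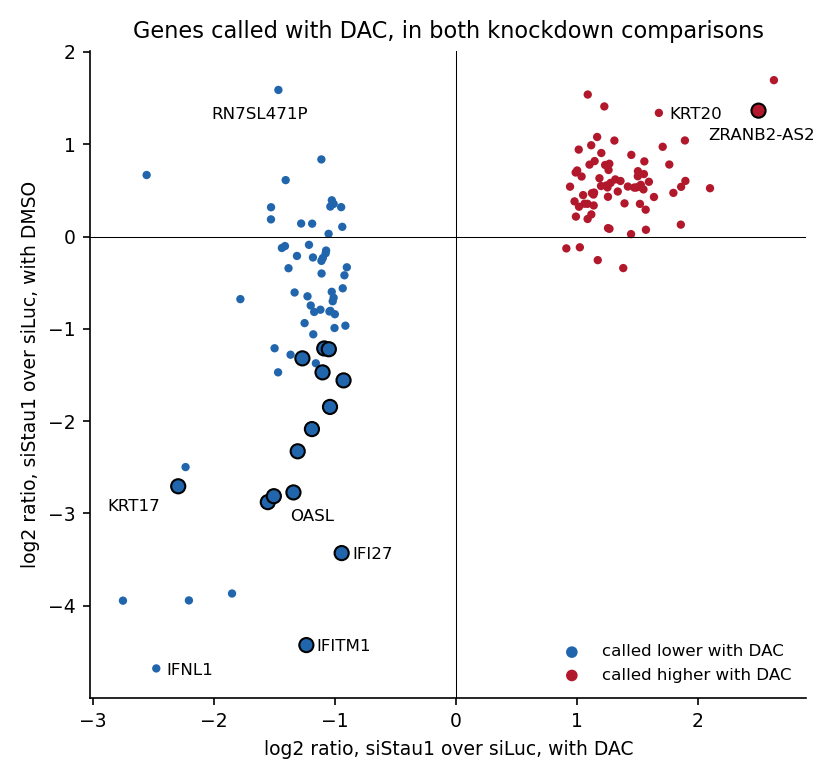
Log2 ratio of FPKM plus 0.1, siStau1 over siLuc, with DAC (horizontal) and with DMSO (vertical), for the 139 genes called with DAC that were above 0 in both DAC groups and tested with DMSO. Red genes were called higher and blue genes lower with DAC, and points ringed in black were called with DMSO too. Ringed blue points run down to −4.43 (IFITM1), and 1 red point is ringed (ZRANB2-AS2).

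The summed level of 10 markers of colorectal epithelium was 8398 FPKM in siLuc DAC and 6099 FPKM in siStau1 DAC, of which KRT8, KRT18 and KRT19 gave nearly all. Of the 9 tested, 8 had a ratio below 0 and EPCAM, at 116.9 and 178.8 FPKM, was the exception, while CEACAM5 was at most 0.186 FPKM in the 4 groups. Of markers of other cell types, 7 of fibroblasts summed to 10.5 and 6.83 FPKM, 7 of blood cells to 19.6 and 9.56 FPKM and 5 of endothelium to 1.54 and 1.60 FPKM. CD68, which gave most of the blood cell sum, was at 17.1 FPKM in siLuc DAC and 6.598 FPKM in siStau1 DAC (ratio −1.36). The leukocyte marker PTPRC went the other way, at 0.174 and 0.820 FPKM (ratio 1.74). No marker was called, and the part of these levels in the results was not tested. A group was listed at 0 for 8 called genes, 6 lower and 2 higher. The highest levels among them were 6.69 FPKM for AL023803.1, 0.738 FPKM for MIR3681HG and 0.694 FPKM for AC079080.1 in siLuc DAC, and 1.49 FPKM for APOC1P1 and 0.679 FPKM for AC108073.1 in siStau1 DAC.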

How the data were processed

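Total RNA of 4 groups of 2 libraries each was analysed, and the J2 antibody tables of the series were not used here. The authors' deposited table gives 1 FPKM value per gene and group for 6 pairwise comparisons, each with a deposited p-value and q-value, per the file headers; the deposited test score was not used. The submitters' processing notes name HISAT2 2.1.0, Cuffdiff 2.2.1, Cuffnorm 2.2.1, featureCounts and hg38, without their roles. Recomputing showed that the deposited q-value comes from a Benjamini-Hochberg adjustment over 102180 tests, those of all comparisons. No count test, standard deviation or replicate check could be made, since the values are per group, and depth is unknown.

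Log2 ratios with a pseudocount of 0.1, gene lists and GC bins were computed with Python 3.11.15, pandas 2.3.3 and numpy 2.4.6, with functions tested on simulated data. All 58699 gene identifiers are in GENCODE 29, which gave positions, classes and the length and GC content of the longest transcript. The FPKM of 1 gene (ZNF468) differed between comparisons, and each group's value was taken from its knockdown comparison. Motifs were searched in RefSeq promoters of GRCh38.p14, matched by symbol or a unique older symbol (11214 of the 17263 tested genes).

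Named genes are the 15 largest called falls and rises at 1 FPKM or more in both groups (no pseudogenes), every called member of a list, STAU1, STAU2, all interferon ligands and called genes listed at 0 in a group. Members of lists are also named as examples. The comparison, the 35 lists (31 by hand, 4 by rule) and the alternatives were chosen with earlier results of these data known. How near-identical copies shared reads is not given in the sources used here. A few genes are not reported here.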

Additional observations from a re-analysis of the deposited data

How the results depend on the processing

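No paired analysis was possible because the table gives 1 value per group and none per library. For the same reason no replicate could be left out. The 156 genes called with DAC became 34 at a q-value limit of 0.01, 0 when adjusted within the comparison and 1199 at an unadjusted p under 0.05, and 61 were called and still at least 2-fold after GC centring, a setting added after seeing the data. The 127 called with DMSO became 55 and 33 under the first 2 of these. Filters on level, class and transcript length left between 132 and 142. The median ratio of all genes stayed between −0.09 and −0.14 under all 5 alternatives. With the median of all genes set to 0, the medians that changed sign were 0.10 for interferon receptors, 0.064 for cholesterol synthesis, 0.013 for germline genes and 0.061 for ribosomal proteins. With GC centring they were 0.082 for interferon receptors, 0.070 for p53 targets, 0.061 for cholesterol synthesis, −0.061 for HERV genes, 0.11 for DNA methylation genes, 0.15 and 0.31 for the epithelial and blood cell markers and 0.11 for ribosomal proteins, and IFNE turned to −0.20. Both settings differ from the main values by construction, as each subtracts a median. Depth is unknown, so what it limits cannot be given.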

Other observations

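Further called genes that belong to none of the lists were read after their values had been seen, so they support no theme. ZC3HAV1, the zinc finger antiviral protein that binds CG-rich viral RNA, was called lower, from 108.3 FPKM in siLuc DAC to 44.9 FPKM in siStau1 DAC (ratio −1.27), and it was called with DMSO too, at 48.4 and 19.3 FPKM. LY6E and APOL2 were called lower with ratios of −1.03 and −1.01. UPP1, which breaks down uridine, went from 95.9 to 38.0 FPKM (ratio −1.33), and SLC7A5, an amino acid transporter, from 83.9 to 44.3 FPKM (ratio −0.92). IGFBP6, which binds insulin-like growth factors, went from 174 to 78.1 FPKM (ratio −1.16). HMOX1, heme oxygenase, went from 54.0 to 20.6 FPKM (ratio −1.38), with 10.4 and 8.14 FPKM in the siLuc and siStau1 groups with DMSO.

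Among the called rises outside the lists, NPM1, an abundant nucleolar protein, had the highest level, from 528.9 to 1045 FPKM (ratio 0.98). SRP9, a subunit of the signal recognition particle that binds Alu-type RNA, went from 31.7 to 75.9 FPKM (ratio 1.25). RN7SL471P, called lower, is 1 copy related to the RNA of that particle. It was at 0.365 and 1.30 FPKM with DMSO, and its fall does not give the level of the particle's RNA. ANXA1, a phospholipid-binding protein, went from 97.5 to 183.8 FPKM (ratio 0.91) and was at 310.8 and 284 FPKM with DMSO. ATRX, a chromatin remodeller of repeats, went from 7.60 to 18.5 FPKM (ratio 1.27), and the cohesin subunit SMC3 from 8.97 to 18.1 FPKM (ratio 1.00).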
